A study of Mus musculus with 24 samples.

Results

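The lungs of Tnfr-/- and Tnfr+/+ mice were compared after 72 h of continuous exposure to 0.3 ppm ozone (O3), with 3 arrays in each group, 6 of the 24 arrays of the study. The 6 arrays were chosen by their sample titles and not by a measured value. Tnfr-/- mice carry disrupted alleles of both receptors for the inflammatory cytokine TNF (B6.129S-Tnfrsf1a tm1Imx Tnfrsf1b tm1Imx/J), in every cell of the body, and Tnfr+/+ mice were C57BL/6J. All mice were males, 6 to 8 weeks old and purchased from the same supplier as separate strains, so that loss of the receptors and other differences between the 2 strains cannot be told apart. Lung tissue was taken directly after exposure, and each total RNA sample was hybridised to 1 Affymetrix MOE430A array. The article's array methods do not state how many mice went into each array. The hour of the day at tissue collection is not given in the sources used here. The remaining 18 arrays came from both genotypes in filtered air and after 24 or 48 h of the same O3 and are used to ask whether a difference at 72 h was already present at the other exposures.

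TNF is a cytokine of macrophages and lymphocytes that binds TNFR1 (encoded by Tnfrsf1a), which is found on most cells, and TNFR2 (encoded by Tnfrsf1b), which is found mainly on leukocytes and endothelium. Both receptors pass the signal through TRAF adaptors to NF-kB, a transcription factor that switches on chemokines, cytokines and its own inhibitors. O3 is an oxidant gas that injures airway epithelium and draws leukocytes into the lung.

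All values are array signals, the intensity of a probe set after quantile normalization. Of 20537 probe sets tested, 33 were called at an adjusted p under 0.05 (limma with Benjamini-Hochberg adjustment), which is 0.161% of those tested. Of these, 24 were higher and 9 were lower in Tnfr-/- lungs. They named 25 genes, 17 higher and 8 lower, and 6 probe sets had no single gene name. With the brightest probe set of each gene alone, 15 of 11597 genes (0.129%) were called. Signals of the 2 groups did not overlap for any of the 33, compared with 13.0% of all probe sets tested. Before adjustment, 2272 probe sets had a p under 0.05, 1193 higher and 1079 lower. The calls rest on an estimate of spread shared by all 24 arrays, and a fit of the 6 arrays alone called 0.

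The arrays were of comparable brightness, with a total signal between 14877000 and 16057700. Replicate 1 of the Tnfr+/+ mice at 72 h stood apart. Its Gapdh control probe sets had a 3'/5' signal ratio of 4.45, against 0.89 to 1.74 on the other 23 arrays, while its actin ratio was 1.18. It also had the lowest mean correlation with the other arrays, 0.927 against 0.943 to 0.954. The results without it were computed after the data had been seen. Without it, 23 probe sets were called, 18 higher and 5 lower, and 15 were shared with the calls from all arrays, 45.5% of the 33 and 65.2% of the 23. All 33 kept their direction without it, which was all but fixed beforehand because their groups did not overlap. Lung markers were bright in both groups, with Sftpc (surfactant protein C of alveolar type 2 cells) between 28353 and 32126 and Scgb1a1 (the secretoglobin of club cells) between 26189 and 30117 on all 6 arrays.

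**Figure D1:**
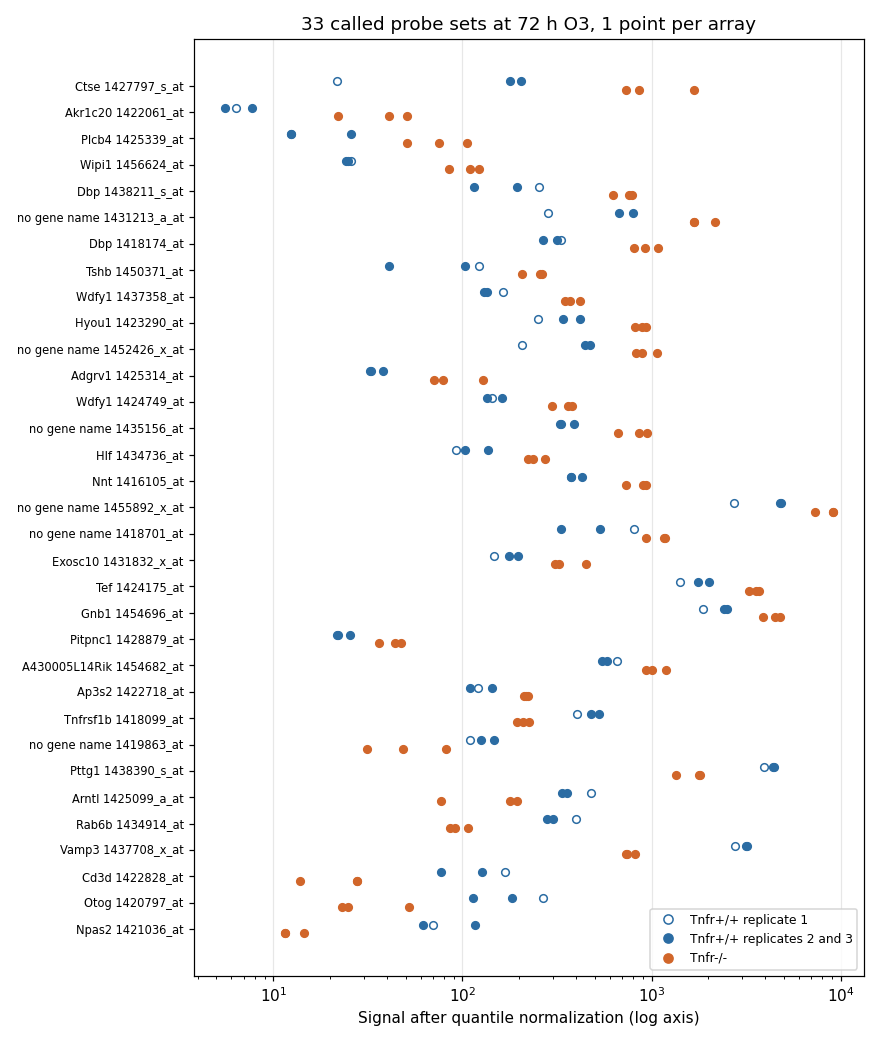
Signal (log axis) of the 33 called probe sets on each of the 6 arrays at 72 h O3, 1 point per array, with Tnfr+/+ in blue (replicate 1 as an open circle) and Tnfr-/- in orange. The 2 genotypes are separate in every line, and the open circle is the lowest Tnfr+/+ value by far for Ctse.

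The disrupted genes were read first. The brighter probe set of Tnfrsf1b had a signal of 406, 525 and 479 on the 3 Tnfr+/+ arrays and 224, 194 and 208 on the 3 Tnfr-/- arrays. Every Tnfr-/- value lay below every Tnfr+/+ value, a 2.24-fold lower signal (log2 difference -1.17 ± 0.16 SE, adjusted p = 0.00319). The dimmer Tnfrsf1b probe set had overlapping groups and a log2 difference of -0.15 ± 0.29 (adjusted p = 0.872). Tnfrsf1a had 3623, 2042 and 2541 in Tnfr+/+ and 1399, 1715 and 2341 in Tnfr-/- lungs. These groups overlapped, and the log2 difference of -0.58 ± 0.22 was not called (adjusted p = 0.350). An array probe set can read RNA of a disrupted allele when it lies outside the disrupted part, and the position of these probe sets relative to the alleles was not examined.

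Among 26 tested members of TNF receptor signaling, Tnfrsf1b was the 1 called. Rbck1 (a subunit of the ubiquitin ligase LUBAC that acts below TNFR1) had a mean signal of 978 in Tnfr+/+ and 654 in Tnfr-/- lungs, a log2 difference of -0.56 ± 0.17 that was not called (adjusted p = 0.233). Ltb (lymphotoxin beta, a TNF family ligand of lymphocytes) had a log2 difference of -0.72 ± 0.27 (adjusted p = 0.349). Tnf itself was dim, at 29.7, 22.3 and 43.0 in Tnfr+/+ and 15.9, 18.4 and 21.7 in Tnfr-/- lungs. The groups did not overlap, but the log2 difference of -0.72 ± 0.43 was not called (adjusted p = 0.533).

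Of 33 NF-kB target genes tested, 0 were called by limma, and 26 had a log2 difference below 0 with a median of -0.16, against 54.3% below 0 and a median of -0.03 over all 11597 genes. At an unadjusted p under 0.05, 1 member was higher and 1 lower. Over all genes, 4.54% were higher and 5.78% lower by that rule, and 0.129% were called. The higher one was Ptgs2 (cyclooxygenase 2, 216 against 345, log2 0.77 ± 0.28, adjusted p = 0.336) and the lower one was Ccl5 (a chemokine for T cells, 701 against 416, log2 -0.80 ± 0.22, adjusted p = 0.200). Without Tnfr+/+ replicate 1, 20 of the 33 were below 0 and the median was -0.04. The 13 subunits and inhibitors of NF-kB had a median of -0.16 with 0 called and 1 with an unadjusted p under 0.05, and a median of 0.01 without that array.

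Genes of the circadian clock held 3 of the 15 called genes. In the clock, a dimer of BMAL1 (encoded by Arntl) with CLOCK or NPAS2 switches on genes through E-boxes, among them the Per and Cry repressors, the nuclear receptors Nr1d1 and Nr1d2 and the PAR bZIP factors Dbp, Tef and Hlf. Nr1d1 and Nr1d2 in turn repress Arntl, Npas2 and Nfil3 through ROR elements (RORE), and Nfil3 competes with the PAR bZIP factors at D-boxes. The promoters of Tef, Arntl and Nfil3 are shown because they hold letters of these elements, an E-box in Tef and a RORE end in Arntl and Nfil3, which are in capitals. The sequences are from RefSeq (GRCm38.p6) and run 5' to 3' on the gene's own strand from 250 bases before the annotated start.
Tef chr15:81811164-81811463 (+ strand): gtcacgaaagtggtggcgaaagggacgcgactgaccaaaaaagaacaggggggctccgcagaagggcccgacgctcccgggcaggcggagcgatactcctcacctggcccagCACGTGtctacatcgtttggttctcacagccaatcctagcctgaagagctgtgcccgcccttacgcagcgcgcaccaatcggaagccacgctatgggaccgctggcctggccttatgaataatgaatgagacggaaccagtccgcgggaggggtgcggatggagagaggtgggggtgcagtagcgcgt
Arntl chr7:113207261-113207560 (+ strand): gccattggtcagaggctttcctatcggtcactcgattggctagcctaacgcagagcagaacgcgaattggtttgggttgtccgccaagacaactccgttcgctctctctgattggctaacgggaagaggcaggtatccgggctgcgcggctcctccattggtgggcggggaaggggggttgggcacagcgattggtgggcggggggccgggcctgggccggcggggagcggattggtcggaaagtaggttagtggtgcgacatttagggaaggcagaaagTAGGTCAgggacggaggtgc
Nfil3 chr13:52980990-52981289 (- strand): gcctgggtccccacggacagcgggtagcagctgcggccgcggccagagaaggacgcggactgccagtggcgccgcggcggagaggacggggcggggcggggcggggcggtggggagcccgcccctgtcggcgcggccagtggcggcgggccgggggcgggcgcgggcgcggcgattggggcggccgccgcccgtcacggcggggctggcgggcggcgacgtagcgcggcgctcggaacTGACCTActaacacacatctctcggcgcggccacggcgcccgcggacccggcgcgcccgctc

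Each motif was searched on both strands in 32851 promoters of 300 bases. The E-box CACGTG was in 7.15% of them, the D-box TTANGTAA in 2.32%, and the RORE ends TAGGTCA and TGGGTCA in 2.61% and 3.98%. Tef held an E-box in both of its listed promoters, 138 bases before the start in the one shown. Nfil3 held TAGGTCA on the opposite strand starting 12 bases before its start, and in 1 of the promoters listed for Arntl the same letters started 30 bases after it. The promoters listed for Dbp, Hlf, Npas2, Nr1d1 and Nr1d2 held none of the 4 motifs, which says only that these letters are not in this window. Of 17 clock genes with a listed promoter, 5 held the E-box, 2 held TAGGTCA, 1 held the D-box and 0 held TGGGTCA. These counts are per gene, with a match in any of its promoters, unlike the percentages above, which are per promoter. Besides Tef, the E-box was in promoters of Bhlhe41, Ciart, Cry1 and Per1, and the D-box was in Per3. Cry1, Per1 and Per3 had overlapping groups at 72 h, as given below. These are matches of letters within a short window and no measure of binding.

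Dbp, Tef and Hlf, genes driven by the clock, were higher in Tnfr-/- lungs. Dbp had a signal of 334, 266 and 316 in Tnfr+/+ and 812, 927 and 1082 in Tnfr-/- lungs. Every knockout value lay above every wild-type value, and the signal was 3.07-fold higher (log2 1.62 ± 0.24, adjusted p = 0.00554). The second Dbp probe set was also called (254, 116 and 194 against 628, 759 and 784, log2 2.01 ± 0.32, adjusted p = 0.0114). Tef had 1418, 2007 and 1767 against 3556, 3295 and 3687, a 2.05-fold higher signal (log2 1.03 ± 0.19, adjusted p = 0.0364). Hlf was called through its dimmer probe set (92.9, 103 and 137 against 237, 273 and 222, adjusted p = 0.0455), while the brighter one had overlapping groups and a log2 difference of 0.66 ± 0.24 (adjusted p = 0.326).

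Arntl and Npas2, of the activating arm, were lower. Arntl had a signal of 477, 334 and 358 in Tnfr+/+ and 179, 195 and 77.1 in Tnfr-/- lungs, a 2.77-fold lower signal (log2 -1.47 ± 0.29, adjusted p = 0.0435). Npas2 was dim and was called through 1 of its 2 probe sets, with 70.3, 117 and 61.8 against 14.5, 11.5 and 11.5 (log2 -2.68 ± 0.46, adjusted p = 0.0232). Its other probe set also had separate groups (88.4, 103 and 68.2 against 37.8, 17.5 and 5.46) with an adjusted p = 0.0641. Hlf and Npas2 were picked out here after their values were seen.

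Over the whole list, 19 clock genes were tested through the brightest probe set of each, of which 2 were called higher and 1 lower. With an unadjusted p below 0.05 there were 7 higher and 3 lower. Over all genes tested, 4.54% were higher and 5.78% were lower by that rule. The others of the 7 besides Dbp, Tef and Hlf were Cry2, Nr1d2, Per2 and Nr1d1. Nr1d1 had 834, 1039 and 922 against 1487, 1986 and 1525 (log2 0.83 ± 0.23, adjusted p = 0.206). Nr1d2 had 925, 960 and 910 against 1900, 1637 and 2181 (log2 1.02 ± 0.29, adjusted p = 0.216). Per2 had 296, 270 and 236 against 431, 537 and 628 (log2 0.98 ± 0.27, adjusted p = 0.193). In each of these 3 the groups were separate although the gene was not called. Nfil3 had 369, 467 and 213 against 169, 199 and 152 (log2 -0.95 ± 0.31, adjusted p = 0.282).

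Through their brightest probe sets, the genes Clock, Cry1, Per1, Per3 and Rora had overlapping groups and log2 differences between -0.12 (Clock) and 0.15 (Per3). Without Tnfr+/+ replicate 1, the counts were again 7 and 3, Dbp was still called (adjusted p = 0.0129) and Tef (log2 0.89, adjusted p = 0.163), Arntl (-1.31, adjusted p = 0.190), Hlf (1.03, adjusted p = 0.190) and Npas2 (-2.77, adjusted p = 0.0551) were not. In air, the differences had the same sign for Dbp (log2 1.57, adjusted p = 0.00687), Tef (0.85, adjusted p = 0.122), Arntl (-1.16, adjusted p = 0.188), Nr1d1 (0.69, adjusted p = 0.427), Per2 (0.68, adjusted p = 0.559) and Nfil3 (-0.98, adjusted p = 0.382). At 24 and 48 h of O3, Dbp (log2 1.60 and 0.73), Arntl (-0.72 and -0.80), Nr1d1 (1.11 and 0.45) and Nfil3 (-1.08 and -0.54) again had the sign seen at 72 h. Tef was close to 0 at both (0.06 and 0.19). The brighter Hlf probe set (-0.20 and -0.07) and Per2 (-1.09 and -0.28) were on the other side of 0. The dimmer Hlf probe set, called at 72 h, kept its sign with 0.85 in air, 0.22 at 24 h and 0.33 at 48 h, none called. The median of the 19 clock genes was 0.01 at 72 h, 0.17 in air, -0.20 at 24 h and -0.12 at 48 h.

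**Figure D2:**
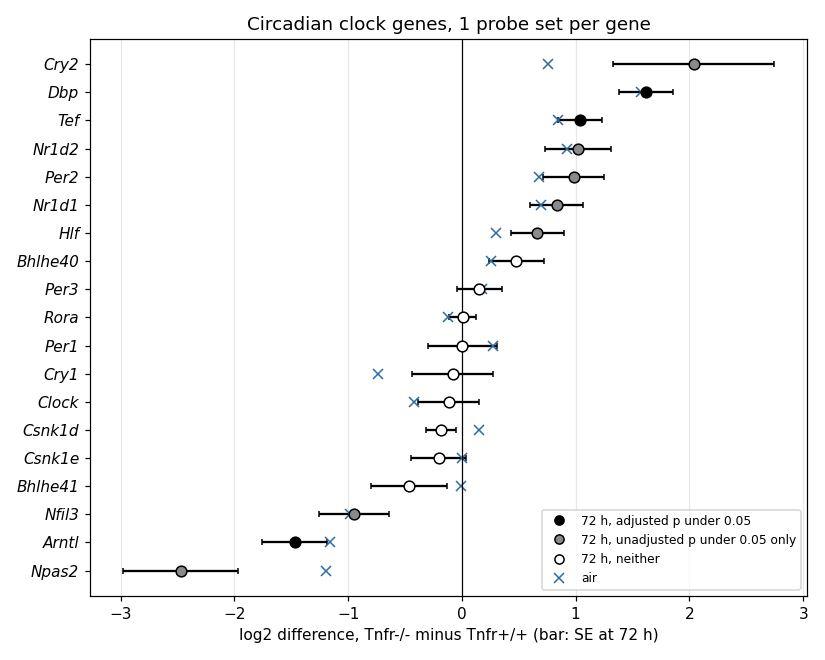
Genotype difference (log2, Tnfr-/- minus Tnfr+/+, bar: SE) of the 19 clock genes at 72 h O3, with filled black points for called genes, gray for those with an unadjusted p under 0.05 only and open for the rest, and crosses for the difference in air. Cry2, Dbp, Tef, Nr1d2, Per2 and Nr1d1 lie on the right and Npas2, Arntl and Nfil3 on the left, and their crosses lie on the same side.

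Nnt, Wdfy1 and Rab6b were called at 72 h and also at other exposures. Nnt encodes the mitochondrial transhydrogenase that makes NADPH, and C57BL/6J mice are known to carry a deletion in this gene. Its signal was 377, 431 and 376 in Tnfr+/+ and 930, 905 and 737 in Tnfr-/- lungs at 72 h, 2.17-fold higher (log2 1.12 ± 0.14, adjusted p = 0.00118). In air, at 24 h and at 48 h the log2 difference of Nnt was 1.23, 0.80 and 1.26, called each time (adjusted p = 0.000365, 0.0104 and 0.000237). Among 43 tested genes of the respiratory chain list, Nnt was the 1 called.

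Wdfy1 encodes an endosomal adaptor protein with WD repeats and a FYVE domain, and 2 of its 3 probe sets were called. The first had 164, 135 and 130 against 372, 419 and 347 (log2 1.41 ± 0.14, adjusted p = 4.37e-05), and the second had 144, 161 and 135 against 297, 361 and 382 (adjusted p = 0.00554). The third was dim and its groups overlapped (adjusted p = 0.763). In air the log2 difference of the first was 0.94 (adjusted p = 0.0038).

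Rab6b, a small GTPase of Golgi transport known from neurons, was lower. Its signal was 400, 300 and 281 in Tnfr+/+ and 107, 91.1 and 85.5 in Tnfr-/- lungs, with a log2 difference of -1.78 ± 0.25 (adjusted p = 0.00344). The Rab6b difference was -1.92 in air, -2.16 at 24 h and -2.29 at 48 h, called at each. Nnt, both of these Wdfy1 probe sets and Rab6b were called at 72 h whichever of the 6 arrays was left out.

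Ctse (cathepsin E, an aspartic protease of antigen-presenting and epithelial cells) had the largest log2 difference among the genes named. Its called probe set had 21.7, 179 and 203 in Tnfr+/+ and 732, 1682 and 856 in Tnfr-/- lungs (log2 3.46 ± 0.57, adjusted p = 0.0146). The lowest value was in Tnfr+/+ replicate 1, and without that array the log2 difference was 2.41 ± 0.33 (adjusted p = 0.003). The other Ctse probe set had a mean of 350 in Tnfr+/+ and 287 in Tnfr-/- lungs and was not called (log2 -0.31). The 2 probe sets thus had opposite signs.

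Over all 33 called probe sets, 27 had the same sign of the genotype difference in air, at 24 h and at 48 h as at 72 h. Of all probe sets tested, 26.5% had 1 sign at all 4 exposures. These 4 comparisons share no arrays. By the same rule of calling, 18 probe sets (0.0876%) were called in air, 206 (1.00%) at 24 h and 34 (0.166%) at 48 h. Of the 33, 13 were also called in air, 15 at 24 h and 17 at 48 h, 9 were called at all 3 and 13 at none. Among the 13 without a call elsewhere, Wipi1 (24.2 to 25.7 against 84.8 to 123) and Adgrv1 (32.5 to 38.2 against 70.9 to 129) had log2 differences of 2.07 and 1.38, compared with -0.06 and 0.06 in air. Akr1c20 had 5.54 to 7.74 against 21.97 to 51.2, so dim in Tnfr+/+ lungs that no size is given. All 3 were below the median signal of all probe sets (276), and none was called without Tnfr+/+ replicate 1 (adjusted p = 0.118 for Wipi1, 0.144 for Adgrv1 and 0.0763 for Akr1c20). Wipi1 was called in 0 of the 6 limma fits that left out 1 array, with adjusted p up to 0.167. Akr1c20 and Wipi1 were called through a probe set dimmer than another of the gene that was not called. The 3 genes were chosen after their values were seen.

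**Figure D3:**
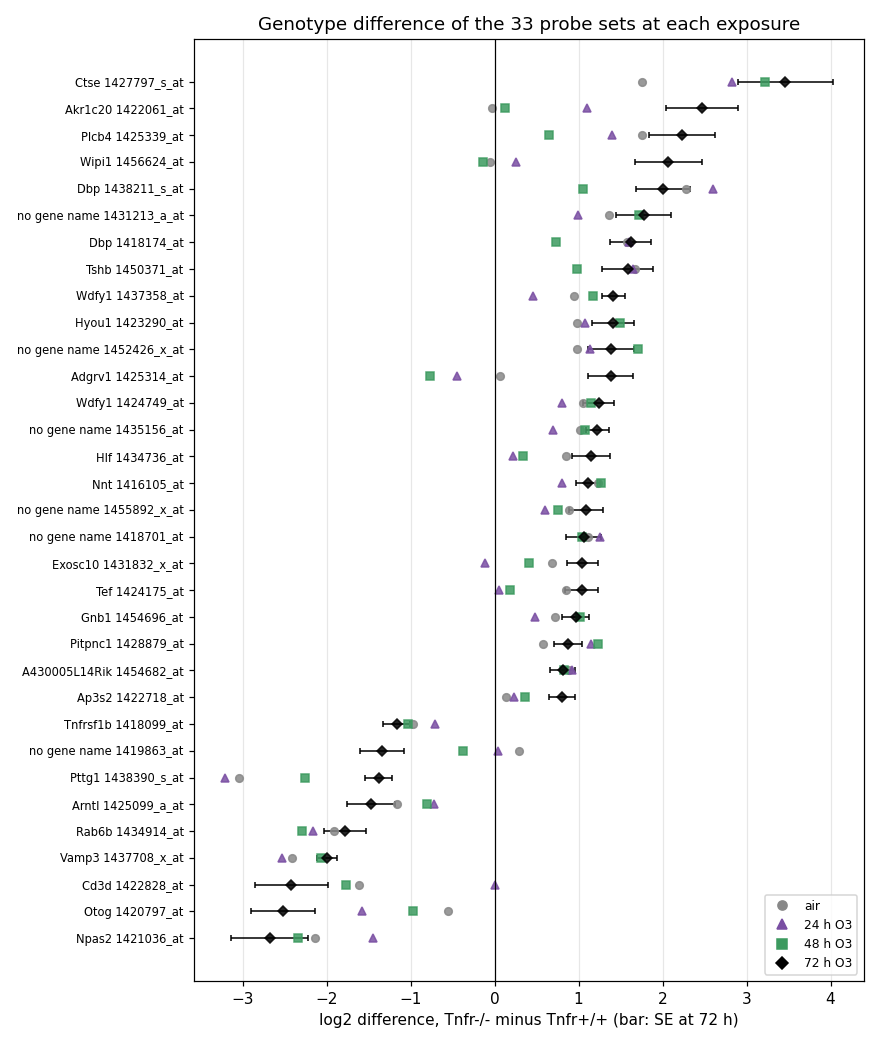
Log2 genotype difference (Tnfr-/- minus Tnfr+/+) of the 33 called probe sets in air (gray), at 24 h (purple), 48 h (green) and 72 h O3 (black diamond, bar: SE). For 27 of the 33 all 4 symbols lie on the same side of 0, and Pttg1 is far nearer to 0 at 72 h than in air.

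Pttg1 was the 1 probe set, 0.00487% of those tested, with a genotype difference that changed between air and 72 h. Pttg1 encodes securin, which holds separase inactive until sister chromatids part in mitosis. At 72 h the signal of its brightest probe set was 3945, 4386 and 4435 in Tnfr+/+ and 1344, 1790 and 1803 in Tnfr-/- lungs (log2 -1.38 ± 0.16, adjusted p = 0.000392). In air it was 5845, 6351 and 6695 in Tnfr+/+ and 873, 912 and 558 in Tnfr-/- lungs (log2 -3.04, adjusted p = 1.78e-09). From air to 72 h the mean signal was 6297 and 4255 in Tnfr+/+ lungs, which was not called (log2 -0.57 ± 0.16, adjusted p = 0.0624), and it rose from 781 to 1646 in Tnfr-/- lungs (log2 1.10 ± 0.16, adjusted p = 0.000443). On this probe set the genotypes were separate at every exposure and the gap narrowed.

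The difference of the Pttg1 gap between 72 h and air was 1.66 ± 0.23 on the log2 scale (adjusted p = 0.0163), and against 24 h it was 1.83 (adjusted p = 0.00165). The call against air was lost without Tnfr+/+ replicate 1 at 72 h (log2 1.60, adjusted p = 0.0753), Tnfr+/+ replicate 2 at 72 h (adjusted p = 0.0568), Tnfr-/- replicate 2 at 72 h (adjusted p = 0.0944) or Tnfr+/+ air replicate 2 (adjusted p = 0.0733). A second Pttg1 probe set gave log2 differences of -3.51 in air and -1.27 at 72 h, with an interaction of 2.24 ± 0.38 that was not called (adjusted p = 0.151). The third and dimmest, with overlapping groups at 72 h, gave -2.09 in air, -1.76 at 24 h, -2.81 at 48 h and -1.66 at 72 h, none called. Its gap at 72 h thus changed far less against air and 24 h, but its widest gap was at 48 h. The other 35 tested genes of mitosis and cell division held 0 calls at 72 h.

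Against 24 h, 6 probe sets (0.0292%) had a changed genotype difference. Besides Pttg1, they were Egr1 and Ccn1 (genes of the rapid growth factor response), Mertk (a receptor for the uptake of dying cells), AA545190 and 1 unnamed probe set, which are named after their values were seen. Egr1 differed by 2.32 between the genotypes at 24 h and by 0.21 at 72 h (difference -2.11 ± 0.27, adjusted p = 0.00165). Against 48 h, 0 probe sets were called by limma, with 968 at an unadjusted p under 0.05.

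**Figure D4:**
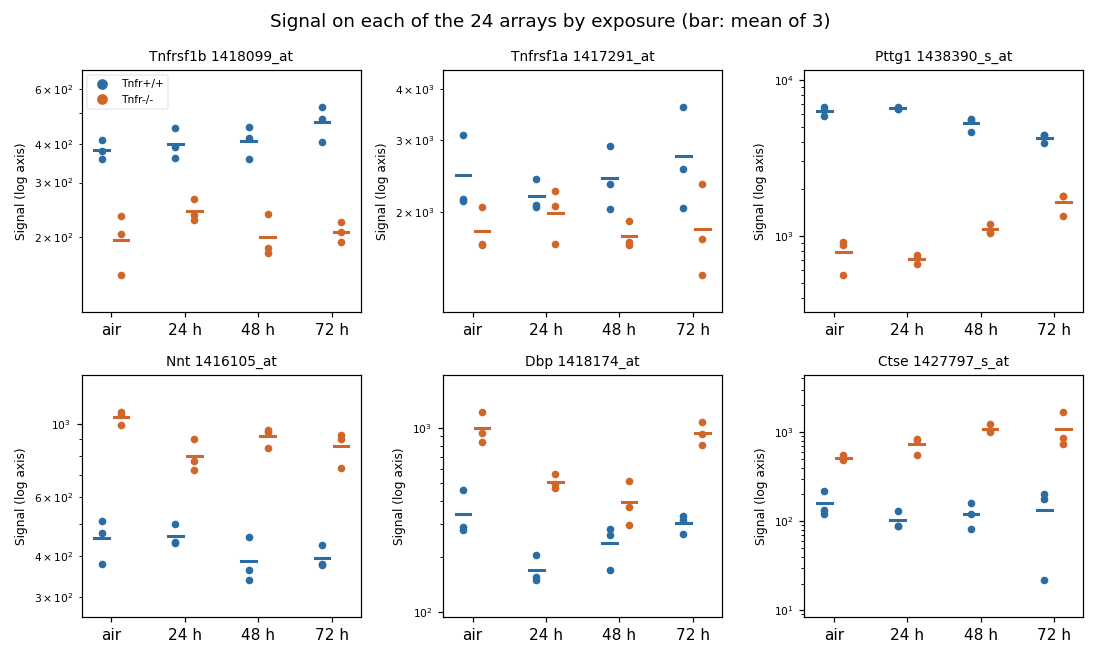
Signal (log axis) of 6 probe sets on each of the 24 arrays in air and at 24, 48 and 72 h O3, with Tnfr+/+ in blue, Tnfr-/- in orange and bars for the mean of 3 arrays. Tnfrsf1b, Pttg1, Nnt, Dbp and Ctse are separate by genotype at 72 h and Tnfrsf1a overlaps, and the Pttg1 gap narrows from air to 72 h.

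Of the other called genes, Hyou1 (an endoplasmic reticulum chaperone) had 251.4, 420 and 340 against 932, 889 and 814 (log2 1.41 ± 0.25, adjusted p = 0.0249), and it was also called at 24 and 48 h. Its other 2 probe sets were not called. The brightest had overlapping groups (means 1469 against 1696, log2 0.21 ± 0.23, adjusted p = 0.754), and the dimmest had a log2 difference of 1.07 (adjusted p = 0.261). Otog (otogelin, a protein of the inner ear) had 268, 114 and 182 against 51.9, 23.1 and 24.7 (log2 -2.52 ± 0.38, adjusted p = 0.00578). Tshb (the beta chain of thyrotropin) had 123, 40.8 and 103 against 206, 257 and 262 (log2 1.58 ± 0.30, adjusted p = 0.0412). Otog and Tshb were dim, as were Plcb4 (12.3 to 25.8 against 50.9 to 105), Pitpnc1 (21.8 to 25.4 against 36.0 to 47.4) and Ap3s2 (109 to 144 against 212 to 221), whose other probe sets were not called. Without Tnfr+/+ replicate 1, Hyou1 (log2 1.21, adjusted p = 0.120), Plcb4 (2.05, adjusted p = 0.118), Pitpnc1 (0.84, adjusted p = 0.137) and Ap3s2 (0.79, adjusted p = 0.118) were not called, and Otog and Tshb were (adjusted p = 0.0399 and 0.0129). These 6 genes, too, were named after their values were seen.

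Several called genes lie close to a disrupted receptor gene. Genes were placed in order along each chromosome by RefSeq (GRCm38.p6). Among the 199 tested genes within 100 tested genes of Tnfrsf1b on chromosome 4, 4 had a called probe set, 2.01%, compared with 25 of 11575 placed genes (0.216%). They were Exosc10 (a nuclease of the RNA exosome, through 1 of 4 probe sets), Vamp3 (a SNARE protein of endosomes), A430005L14Rik and Gnb1 (a G protein beta subunit), at positions 17, 43, 58 and 73 from Tnfrsf1b in that order. At an unadjusted p under 0.05 the share was 20.1% near Tnfrsf1b, 12% of the 200 genes near Tnfrsf1a on chromosome 6 and 10.3% of all placed genes, and 0 of the genes near Tnfrsf1a were called. Without Tnfr+/+ replicate 1, Vamp3 and A430005L14Rik were called and Gnb1 (log2 0.83, adjusted p = 0.0819) and Exosc10 (0.93, adjusted p = 0.118) were not. The window was chosen after the values were seen, and no test of it was made.

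Vamp3 gave the lowest p of the comparison through 1 of its 5 probe sets, with 2748, 3146 and 3204 in Tnfr+/+ and 739, 813 and 730 in Tnfr-/- lungs (log2 -1.99 ± 0.12, adjusted p = 4.27e-08). The other 4 Vamp3 probe sets had log2 differences of 0.23, 0.13, -0.41 and -0.80, none called, so that the probe sets of this gene disagree. Gnb1 had 1869, 2423 and 2492 against 3901, 4763 and 4518 (log2 0.97 ± 0.16, adjusted p = 0.0188), while its dimmest probe set had a log2 difference of -0.50. A430005L14Rik had 653, 548 and 580 against 929, 1200 and 1000 (log2 0.81 ± 0.15, adjusted p = 0.0364) and was called at every other exposure. A base difference under a probe and a change in RNA cannot be told apart on these arrays.

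Of the T cell markers, Cd3d was called lower in Tnfr-/- lungs. Cd3d (a chain of the T cell receptor complex) had 167, 76.7 and 126 in Tnfr+/+ and 13.8, 27.6 and 27.7 in Tnfr-/- lungs, a 5.36-fold lower signal (log2 -2.42 ± 0.44, adjusted p = 0.0277). The difference was called for Cd3d at 72 h alone, with log2 values of -1.62 in air, 0.00 at 24 h and -1.77 at 48 h, and it was not called without Tnfr+/+ replicate 1 (log2 -2.17, adjusted p = 0.135). Over all genes tested, 54.3% had a log2 difference below 0 and 45.7% above it, with 5.78% lower and 4.54% higher at a p below 0.05 before adjustment, and the gene lists that follow are to be read against these shares. Of 16 T cell markers tested, 13 were below 0 with a median of -0.57, and 4 had a p below 0.05 before adjustment, all lower. Without Tnfr+/+ replicate 1 the median was -0.61, with 4 lower and 1 higher by that rule, against 3.67% and 3.04% of all genes. At the other exposures the T cell median was -0.04 in air, 0.17 at 24 h and -0.25 at 48 h. The summed signal of the list was 3175 to 3342 in Tnfr+/+ and 2164 to 2553 in Tnfr-/- lungs, without overlap. Lat (an adaptor of T cell receptor signaling) had 262, 248 and 241 against 137, 169 and 158 (log2 -0.70 ± 0.22, adjusted p = 0.258). Fewer T cells and less RNA per cell cannot be told apart in whole lung.

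Of 18 NK and cytotoxic markers, 15 were below 0 with a median of -0.52, 7 were lower and 1 was higher before adjustment at 0.05, and limma called 0. The median was -0.50, with 6 lower and 0 higher, without Tnfr+/+ replicate 1. This list was also below 0 at the other exposures, with a median of -0.42 in air, -0.32 at 24 h and -0.48 at 48 h. Ccl5, which these cells also make, had 685, 699 and 720 against 340, 328 and 581, and Tbx21 (T-bet, their lineage factor) had a log2 difference of -0.68 ± 0.21 (adjusted p = 0.262). Gzma (granzyme A) had 568, 760 and 948 against 217, 281 and 965, so that 1 Tnfr-/- array was as high as the highest Tnfr+/+ array. Neutrophil markers had a median of -0.35 over 18 genes, with 5 lower before adjustment at 0.05 and 3 without Tnfr+/+ replicate 1 (median -0.37). Their median was -0.23 in air, 0.19 at 24 h and -0.28 at 48 h. S100a9 and S100a8, the calprotectin subunits, had 1180, 1027 and 1158 against 612, 296 and 571 and 1215, 1159 and 1626 against 601, 374 and 584. Both were separate by genotype without being called (adjusted p = 0.408 and 0.385).

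Cardiac muscle genes, which can enter a lung sample with pulmonary vein or heart tissue, were below 0 in 21 of 22 with a median of -0.52, 9 lower and 1 higher before adjustment at 0.05 and 0 called by limma. The summed signal was 9680 to 17245 in Tnfr+/+ and 7826 to 9121 in Tnfr-/- lungs. Myh6 (a cardiac myosin heavy chain) had 1839, 482 and 525 in Tnfr+/+ and 358, 448 and 374 in Tnfr-/- lungs. Tnfr+/+ replicate 1 was thus well above the other arrays at 72 h. Without it the median of the list was -0.32 and 2 genes were lower at an unadjusted p under 0.05. In air the median was -0.38. The part of such tissue in the differences at 72 h was not tested.

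Of the club cell genes, 15 of 17 were above 0, with a median of 0.18 and 4 higher at an unadjusted p under 0.05. Xenobiotic metabolism had 8 of 29 higher and 0 lower by that rule, with 0 called by limma. Cyp2f2 (a cytochrome P450 of club cells) had 19453, 23499 and 21985 against 26783, 24422 and 24859 (log2 0.23 ± 0.10, adjusted p = 0.409). Without Tnfr+/+ replicate 1, the club cell median was 0.06 with 0 genes at an unadjusted p under 0.05 and the xenobiotic list had 1 higher gene. Alveolar type 2 genes had a median of 0.05 over 21 genes with 0 at an unadjusted p under 0.05.

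**Figure D5:**
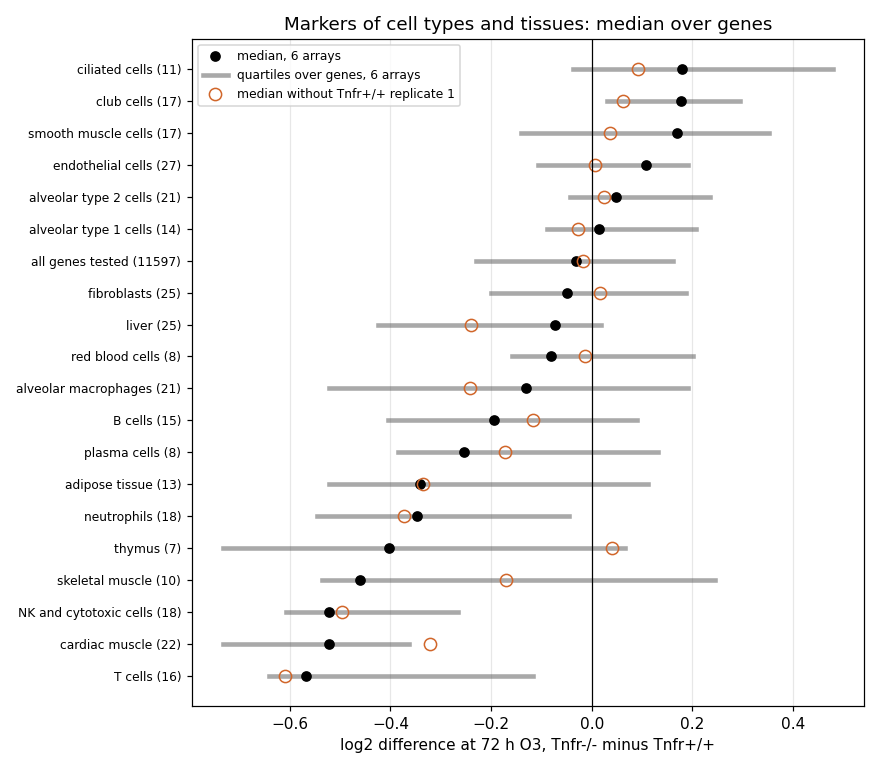
Median log2 genotype difference at 72 h O3 (black) with the quartiles over genes (gray bar) for 19 lists of cell type and tissue markers and for all 11597 genes, with the number of genes tested in parentheses, and the median without Tnfr+/+ replicate 1 as an open orange circle. T cells, cardiac muscle and NK and cytotoxic cells have the lowest medians (-0.57, -0.52 and -0.52), and cardiac and skeletal muscle move toward 0 without that array. The thymus median, over 7 genes, moves from -0.40 to 0.04.

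A set of 15 genes was taken from the article, which names them for the genotypes but does not give all of them as changed at 72 h. Of these 15, Rab6b and Pttg1 passed the threshold here. Among those it gives with fold differences by exposure, the article marks Pttg1, Igfbp2, Dmkn and Slc26a4 as significant at 72 h. It marks Rab6b at 48 h and not at 72 h. The article's test was an ANOVA of genotype and exposure, unlike the limma contrast at 72 h used here. Igfbp2 (an IGF binding protein) had 4748, 2454 and 2379 against 1247, 1764 and 1565 (log2 -1.002 ± 0.22, adjusted p = 0.0803), where the highest value was Tnfr+/+ replicate 1. Dmkn (dermokine, an epithelial secreted protein) had 657, 982 and 1068 against 1656, 1532 and 1108 (log2 0.68 ± 0.23, adjusted p = 0.304). Il33 (an epithelial alarmin) had 1608, 2464 and 2435 against 2822, 2948 and 2432, with overlap (adjusted p = 0.455). Il6 had overlapping signals of 79.3 to 111 and 53.3 to 91.3 (adjusted p = 0.779). Slc26a4 (an anion exchanger) had a log2 difference of 0.19 at 72 h (adjusted p = 0.793) against 1.39 at 24 h (adjusted p = 0.00825). App, Epor, Nmnat1, Kcnj9, Chrm4 and Nebl had adjusted p between 0.406 (Nebl) and 0.974 (App). The pathway lists named for this time point were chosen on these samples and are no independent evidence. By limma 0 of 22 neurodegeneration genes were called (median log2 difference 0.02, 4 at an unadjusted p below 0.05) and 0 of 8 for efflux of amino acids (1 by that rule).

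The genes next in order of p, none of them called, were taken only from those with separate groups and a bright group mean. Besides Igfbp2, given above, they were Plod1, Mxra8, Fcrls, Slc41a1, Irf3, Tnpo2, Dtx1, Fyttd1, Spon2, Tes3-ps, Rps25 and C1qtnf12. Plod1 (a collagen lysyl hydroxylase) had 349, 634 and 676 against 1058, 1271 and 933 (log2 1.02 ± 0.21, adjusted p = 0.0574). Irf3 (the transcription factor that drives type I interferon) had 2120, 2022 and 1968 against 1331, 1537 and 1348 (log2 -0.54 ± 0.12, adjusted p = 0.101), compared with -0.03 in air. Dtx1 (Deltex, an E3 ligase of the Notch pathway) had 552, 663 and 411 against 329, 279 and 327 (log2 -0.77 ± 0.18, adjusted p = 0.107), compared with -0.07 in air. The difference between 72 h and air was not called for Irf3 or Dtx1.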

How the data were processed

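Total RNA of lung tissue was measured on 24 Affymetrix MOE430A arrays in 8 groups of 3. The authors deposited MAS5 intensities for 22644 probe sets on a linear scale, made in Expression Console and scaled for each array. Tool versions are not given in the sources used here.

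For this work the deposited intensities were quantile normalized together, raised to a floor of 1 and transformed to log2. A probe set was tested (20537) if any array reached the 20th percentile of its values, and the 64 control probe sets were left out. One mean per group was fitted to all 24 arrays with limma 3.58.1 (lmFit, eBayes; R 4.3.3), with 16 residual and 2.38 prior degrees of freedom. P-values were adjusted by the Benjamini-Hochberg method across all tested probe sets, and errors of log2 differences are standard errors of this fit. Arrays have no counting depth, and 3 arrays a group limit the precision. The fit was tested on simulated data.

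Groups came from the sample labels. In the array annotation 20338 probe sets had 1 gene, 691 had several and 1551 were not listed. Where a gene had several probe sets, the one brightest on average over the 24 arrays stood for it. The rule for named genes took both receptor genes, and up to 12 rises and 12 falls among called genes. The rises and falls had separate groups and a bright group mean, as did the further genes taken by lowest p up to 24. Genes with a called interaction and up to 4 genes per list in order of p were also taken. So were genes that the article lists with 72 h among the exposures (not all as changed then). The members, lists and rules were chosen with earlier results of these data known. The RORE letters were set after a looser form had been tried. Of 45 gene lists described by counts and medians, the text gives the clock, TNF and NF-kB, leukocyte, muscle and epithelial lists and those that a called gene belongs to. Alternatives are given in the closing section.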

Additional observations from a re-analysis of the deposited data

Results flagged for a closer look

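The genotype difference of Pttg1, which encodes securin, differed between exposures by the test of the difference itself. Against air, the log2 difference between Tnfr-/- and Tnfr+/+ lungs was 1.66 higher at 72 h of O3 (limma, adjusted p = 0.0163), since it was -3.04 in air and -1.38 at 72 h. Against 24 h of O3, where it was -3.21, it was 1.83 higher at 72 h (limma, adjusted p = 0.00165). Both comparisons use the same 6 arrays at 72 h. The call against air was lost when any of 4 single arrays was left out, Tnfr+/+ replicate 1 at 72 h (adjusted p = 0.0753), Tnfr+/+ replicate 2 at 72 h (0.0568), Tnfr-/- replicate 2 at 72 h (0.0944) or Tnfr+/+ air replicate 2 (0.0733), while the call against 24 h held without each of the 24 arrays in turn (adjusted p up to 0.0092). A second Pttg1 probe set gave a difference of 2.24 against air that was not called (adjusted p = 0.151).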

How the results depend on the processing

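The 33 calls at 72 h rest on a spread shared by 24 arrays. A fit of the 6 arrays alone, with 4 in place of 16 residual degrees of freedom by construction, called 0 probe sets. For genotype effects, the methods name a t-test in air and not under O3. The plain t-test called 0 after Benjamini-Hochberg adjustment and 1153 before. Array quality weights gave 20 calls, no moderation of the variances 17, a threshold of 0.10 on the adjusted p 58, and an unadjusted p 2272. Leaving out 1 array gave 12 to 74 calls, 12 without Tnfr-/- replicate 2, 16 without Tnfr-/- replicate 1 and 74 without Tnfr+/+ replicate 3. Of the 33, 9 were called whichever of the 6 arrays was left out. Over 15 settings and left-out arrays, 482 of 482 values of called probe sets kept their direction and 336 were also past the threshold. The direction was all but fixed beforehand, because the groups of all 33 were separate, and is no evidence of stability. The interaction against air (1 call) rose to 2 with a filter at the median, quality weights or eBayes with trend and ran from 0 to 3 with 1 array left out. The difference against 24 h (6 calls) became 26 with the filter at the median and 15 with trend, and ran from 3 to 11 with 1 array left out. The difference against 48 h (0 calls) ran from 0 to 1. The replicate numbers showed no pairing (correlations of deviations 0.115, -0.00114 and 0.0221), and with a replicate block 37 probe sets were called, 31 shared, and 1 differed against 48 h. The causes of these changes were not tested.

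Signs reversed for App, which was -0.02 in log2, to 0.031 with quality weights and 0.20, 0.57 and 0.29 in its other probe sets, and ran from -0.11 to 0.14 with 1 array left out. The dimmer Tnfrsf1b probe set was 0.12 with quality weights and ran from -0.40 to 0.087. Other probe sets of called genes had the opposite sign for Vamp3 (0.23 and 0.13), Ctse (-0.31), Gnb1 (-0.50), Pitpnc1 (-0.33, -0.51 and -0.45) and Wipi1 (-0.27). The cause was not tested.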
